A study of Mus musculus with 6 samples.

Results

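The subcortical maternal complex is a protein assembly beneath the plasma membrane of the mammalian egg, and its mRNAs were followed here through ribosome footprints of mouse oocytes. The 7 genes described, Nlrp5, Tle6, Ooep, Khdc3, Padi6, Nlrp4f and Zbed3, were taken by name from the 22416 genes of the deposited table, and all 7 were present. Each library was made from 500 pooled oocytes by Ribo-lite, a low-input form of ribosome profiling in which RNase digestion leaves the mRNA fragments that ribosomes cover. The libraries fall into 3 groups of 2, all from WT C57BL/6 female mice aged 4 weeks that had received 5 IU of PMSG, a gonadotropin that drives follicle growth, 44 h before collection. WT_FGO are control fully grown oocytes, arrested at the germinal vesicle (GV) stage. WT_MII are control oocytes at metaphase II (MII), matured in culture. According to the study's methods, control oocytes of both the GV and MII stages received the solvent DMSO. Treat_MII are MII oocytes labelled only as treated. The methods name that treatment as BYBX, a small-molecule ligand of RNA G-quadruplexes (rG4s, folds of guanine-rich RNA), given during maturation in culture.

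NLRP5 (also called MATER), TLE6 and OOEP (FLOPED) form the core of the complex, and KHDC3 (FILIA) binds to it. PADI6, a relative of the arginine deiminases, is needed for the cytoplasmic lattices, the fibrous arrays of the egg in which proteins are stored. NLRP4F and ZBED3 are later-described components. Embryos from mothers lacking core components arrest during the first cleavages, so the genes are classed as maternal-effect genes.

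Because the ligand under study binds rG4s, the member transcripts were searched for G-quadruplex motifs, and the matches in 5′-UTRs and in Zbed3 are shown. The search covered the sense strand only of the longest coding transcript of each gene (GENCODE M21, build GRCm38, which is mm10), for 4 runs of at least 3 G separated by loops of 1 to 7 bases. It found 1 match in the 7 transcripts, in the 5′-UTR of Ooep, 61 bases before the start codon. It lies at chr9:78378590-78378608, minus strand, and the G runs are in capitals:
Ooep, runs of at least 3 G: GGGGcGGGGtcGGGctGGG
Such a match stood in the 5′-UTR of 7.11% of the 14813 tested genes with a coding transcript, in the coding sequence of 4.58% and in the 3′-UTR of 10.5%. No member held a match in the coding sequence or 3′-UTR.

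With runs of at least 2 G, all 7 transcripts held at least 1 match, as did 96.2% of the tested genes, with 37 matches in the members. Only Ooep and Tle6 then held one in the 5′-UTR, where 59.8% of genes did. The further 5′-UTR match of Ooep lies at chr9:78378616-78378642 on the minus strand, 87 bases before the start codon, and that of Tle6 at chr10:81600874-81600896 on the minus strand, 112 bases before it. The 2 matches of Zbed3 are in its coding sequence on the plus strand, at chr13:95336441-95336470 and chr13:95336479-95336498. All 7 members held a coding match of this kind, as did 87.9% of the tested genes, and Khdc3 held 7. Zbed3 is shown because its level was lower in treated oocytes, a difference that did not pass the main test described below. Whether its matches bear on that difference was not tested. Runs of at least 2 G are in capitals:
Ooep, 5′-UTR: GGaGGGGGGGGGGGGGcgccGGcgtGG
Tle6, 5′-UTR: GGcccGGGGcccagcaGGaGGGG
Zbed3, coding, first: GGagcagatGGGtgagctGGccatgcGGGG
Zbed3, coding, second: GGGagctGGagctGGagcGG
A match describes letters in a window, and folding in oocytes was not measured by these libraries.

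The values are FPKM of ribosome footprints on coding sequence, which are relative to each library's total, so a gain in other genes lowers them. They were whole multiples of the value of 1 read, which gave back the reads: between 88661 and 313865 in genes per library. The library totals behind the FPKM, taken from that step, were between 94309 and 331304 reads, with the WT_FGO libraries shallowest and the Treat_MII libraries deepest. Of the 10 oocyte markers examined, 9 (among them Zp1, Zp2, Zp3, Gdf9 and Bmp15) were above 0 in all 6 libraries, and Figla was listed at 0 in WT_MII_1, WT_MII_2 and Treat_MII_1. Their summed levels ran from 16060 to 28730 FPKM. The 14 granulosa and cumulus markers summed to 1270 FPKM in WT_FGO_2, where 9 were above 0, and to between 127.8 and 273.8 FPKM in the other 5 libraries, where 4 to 8 were. Between replicates, chi-square of the reads per degree of freedom was 3.08 for WT_FGO, 6.33 for WT_MII and 1.60 for Treat_MII. No label says that replicates came from separate animals, so the p-values measure only the spread between these libraries. Fewer mRNAs and fewer ribosomes per mRNA cannot be told apart in footprints alone.

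During control maturation the complex split into 5 members that fell and 2 that rose. Ooep, Khdc3, Padi6, Tle6 and Nlrp5 were between 12.1-fold and 3.46-fold lower in WT_MII than in WT_FGO by the ratio of mean FPKM, whereas Nlrp4f was 2.97-fold and Zbed3 10.9-fold higher. All 7 passed limma's test on log2(FPKM + 1), with Benjamini-Hochberg adjustment at a threshold of 0.05 over the 15127 genes whose mean reached 1 FPKM. Of all those genes, 3.67% were called higher and 3.09% lower. Among the 2706 genes with at least 60 reads over the 6 libraries, a limit set after the data were seen, the called shares were 27.5% and 18.8%, and the 7 members were called there too. The calls rest on 6 libraries sharing one estimate of the spread. Without either Treat_MII library, which enters this comparison only through that estimate, all the calls on members were lost, and without either WT_MII library some were. Fitted on the 4 WT libraries alone, 0 members were called (0 of all 15127 genes), and without the filter on low values 0 members were. All-gene shares are not given for the fits without 1 library or without the filter. A general loss of calls therefore cannot be told there from a loss particular to the members.

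**Figure D1:**
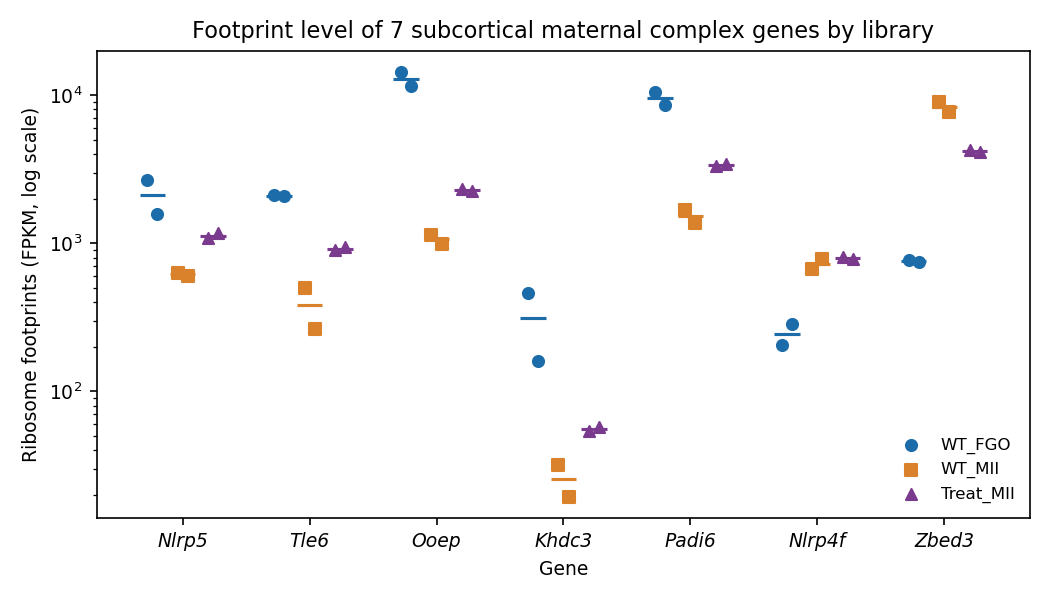
Footprint level in FPKM on a log axis for each of the 7 genes; each point is 1 library (2 per group), and each horizontal line is the group mean. In 5 genes the WT_FGO points are highest and the WT_MII points lowest, with Treat_MII between them; Zbed3 shows the opposite order, and in Nlrp4f the 2 MII groups overlap.

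Among the core genes, Nlrp5, which encodes a large leucine-rich repeat protein, had 2684 and 1575 FPKM in the WT_FGO libraries, from 844 and 563 reads. In WT_MII it stood at 629.1 and 602.7 FPKM, and in Treat_MII at 1082 and 1165 FPKM. Both WT_FGO values lay above all others and both WT_MII values below, with no overlap between groups, and the WT_FGO replicates were the furthest apart. At maturation it fell by 1.74 ± 0.29 on the log2 scale (SE, limma adjusted p = 0.0249). It fell by 1.35 without WT_FGO_1 and by 2.12 without WT_FGO_2, the library with the most granulosa marker signal, whose part in the difference was not tested. Without WT_MII_1 or WT_MII_2 the limma adjusted p was 0.157 or 0.155.

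Tle6, a Groucho-family corepressor relative, had 2101 and 2093 FPKM in WT_FGO, against 498.1 and 262.8 FPKM for WT_MII and 901.3 and 939.3 FPKM for Treat_MII. The WT_FGO libraries were nearly equal, while WT_MII_1 had 1.9 times the level of WT_MII_2, the widest gap of any member between the WT_MII libraries. The groups did not overlap. The level fell by 2.53 ± 0.33 at maturation (log2, SE, limma adjusted p = 0.0118), fell by 2.99 without WT_MII_1, and fell by 2.07 without WT_MII_2. Without WT_FGO_1 or WT_FGO_2 the limma adjusted p was 0.0936 or 0.0938.

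Ooep, which encodes a small KH-domain protein, ranked 3 of all genes by FPKM in both WT_FGO libraries, at 14332 and 11484 FPKM from 665 and 606 reads. In WT_MII it was at 1134 and 994.7 FPKM, from 92 and 113 reads, and ranked 87 and 104. In Treat_MII it was at 2313 and 2249 FPKM. The groups were widely separated relative to their replicates. Ooep fell by 3.59 ± 0.18 at maturation on the log2 scale, the largest fall of the 7 (SE, limma adjusted p = 0.000838).

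Khdc3, which encodes the KH-domain partner of the core, was the least covered member. It had 459.6 and 160.3 FPKM in WT_FGO, from 58 and 23 reads, and 31.71 and 19.42 FPKM in WT_MII, from 7 and 6 reads. The 6 reads of WT_MII_2 have a 95% exact Poisson interval from 2.20 to 13.1, which, like all such intervals here, covers counting error only. It had 54.14 and 56.95 FPKM in Treat_MII, from 24 and 21 reads. The WT_FGO libraries differed 2.87-fold, the widest replicate gap of any member in any group, and still lay above all other libraries. It fell by 3.40 ± 0.61 at maturation (log2, SE, limma adjusted p = 0.0311). The log2 change was -2.64 without WT_FGO_1, with a limma adjusted p of 0.0557, and -4.16 without WT_FGO_2. Without WT_MII_1 or WT_MII_2 the limma adjusted p was 0.132 or 0.165. The coding sequence of Khdc3 overlaps that of Gm20509 on the same strand: 54.2% of its 28-base words also occur in Gm20509 transcripts, and Gm20509 was listed at 0 FPKM in all 6 libraries, so how overlapping reads were assigned bears on the level.

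Padi6 carried the most reads of the 7 in every group but WT_MII, with 2066 and 1916 reads in the WT_FGO libraries. Its level was 10477 and 8544 FPKM in WT_FGO, against 1687 and 1369 FPKM for WT_MII and 3324 and 3406 FPKM for Treat_MII. No group overlapped another. It fell by 2.64 ± 0.18 at maturation on the log2 scale (SE, limma adjusted p = 0.00194).

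Nlrp4f, which encodes another NLRP family protein, had 204.3 and 284.9 FPKM in WT_FGO, against 666.4 and 786.8 FPKM for WT_MII and 809.0 and 779.7 FPKM for Treat_MII. Both WT_FGO libraries were below all MII libraries, and the treated and control MII libraries overlapped. It rose by 1.58 ± 0.27 at maturation on the log2 scale (SE, limma adjusted p = 0.0272). Without WT_MII_1 or WT_MII_2 the limma adjusted p was 0.0964 or 0.110. Nlrp4f shared 25.4% of its 28-base coding words with other genes, most of them with the pseudogene Nlrp4g. For Nlrp5 the share was 18.7%, most of it with the pseudogene Nlrp5-ps, and for Tle6 6.28%. For Ooep, Padi6 and Zbed3 it was 0. Levels of the first 3 are therefore less certain where reads could be placed on either copy.

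Zbed3, a zinc finger protein of the BED type, showed the largest rise. It was at 775.1 and 749.7 FPKM in WT_FGO, from 50 and 55 reads, at 8995 and 7693 FPKM in WT_MII, from 1015 and 1215 reads, and at 4232 and 4122 FPKM in Treat_MII, from 959 and 777 reads. Its rank among all genes went from 136 and 124 in WT_FGO to 6 and 11 in WT_MII, and was 26 and 27 in Treat_MII. The 3 groups did not overlap, and replicates differed by at most 1.17-fold. It rose by 3.45 ± 0.16 at maturation (log2, SE, limma adjusted p = 0.000757).

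The composition of the footprints on the complex changed accordingly. The 7 genes together took 4.36% (95% Wilson interval 4.23 to 4.49) and 3.43% (3.32 to 3.54) of the library total in WT_FGO_1 and WT_FGO_2. They took 1.53% (1.47 to 1.59) and 1.35% (1.30 to 1.40) in the WT_MII libraries, and 1.88% (1.83 to 1.93) and 1.91% (1.86 to 1.96) in the Treat_MII libraries. These intervals cover counting error only, and those of replicate libraries did not overlap in WT_FGO or in WT_MII. Padi6 had 13.5 and 11.4 times the FPKM of Zbed3 in the WT_FGO libraries, whereas Zbed3 had 5.33 and 5.62 times that of Padi6 in WT_MII, and 1.27 and 1.21 times in Treat_MII. Such a ratio inside a library does not depend on how libraries were scaled. Ooep had 5.34 and 7.29 times the FPKM of Nlrp5 in WT_FGO, 1.8 and 1.65 times in WT_MII, and 2.14 and 1.93 times in Treat_MII. For Tle6 over Nlrp5 the WT_FGO libraries gave ratios of 0.783 and 1.33, the WT_MII libraries 0.792 and 0.436, and the Treat_MII libraries 0.833 and 0.807, so that the groups overlapped.

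**Figure D2:**
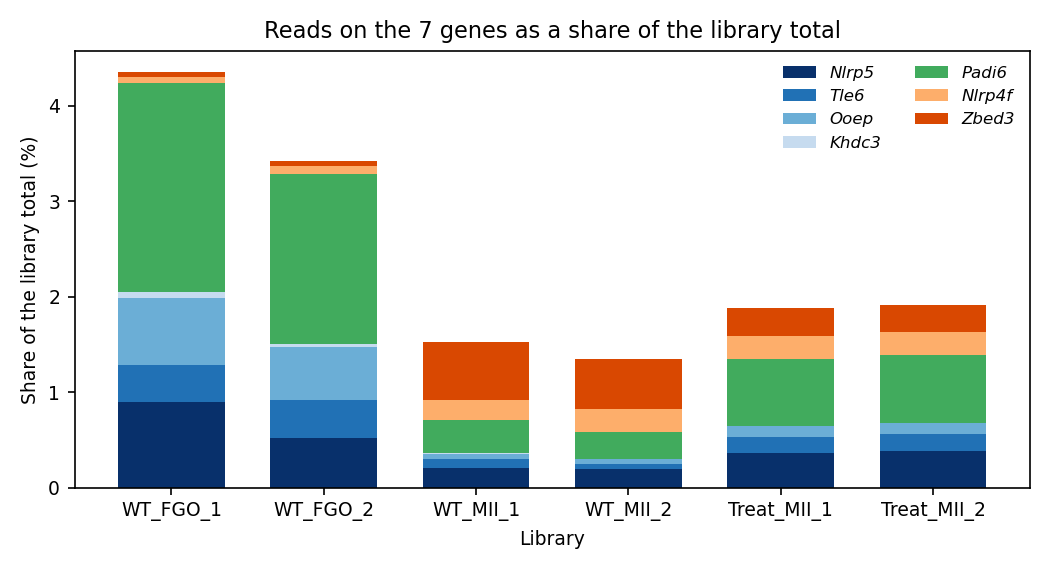
Reads on the 7 genes as a share of the library total behind the FPKM, in percent, with 1 stacked bar per library and 1 colour per gene. The bars reach 4.36% and 3.43% in the WT_FGO libraries and under 2% in all MII libraries, where Zbed3 takes a larger part than in WT_FGO and Padi6 a smaller one.

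In the order of mean levels, WT_FGO ran Ooep, Padi6, Nlrp5, Tle6, Zbed3, Khdc3, Nlrp4f. The libraries of the neighbours Nlrp5 and Tle6 overlapped, as did those of Khdc3 and Nlrp4f, so neither pair differed beyond its spread. In WT_MII the order was Zbed3, Padi6, Ooep, Nlrp4f, Nlrp5, Tle6, Khdc3, and in Treat_MII it was Zbed3, Padi6, Ooep, Nlrp5, Tle6, Nlrp4f, Khdc3, with no neighbours overlapping in either. Nlrp4f thus stood above Nlrp5 and Tle6 in both control MII libraries and below them in both treated ones. In WT_MII_1, however, it had only 1.06 times the FPKM of Nlrp5. That gap is inside the counting error of its 331 reads (95% exact Poisson interval 296 to 369). Both genes also share coding words with other genes, which makes their levels less certain.

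The comparison of Treat_MII with WT_MII describes footprint levels at MII with and without the rG4 ligand, with no measure of mRNA amount beside them. From ribosome footprints the study reports lower levels in treated than in control MII oocytes, with more transcripts falling than rising. Most members ran against that direction in the values below, and Zbed3 ran with it. From separate RNA libraries the study reports higher transcript levels in treated than in control MII oocytes. The part of mRNA amount in the differences below was not tested. In treated oocytes 5 members had higher levels, by 1.82-fold to 2.42-fold, and Zbed3 had a lower one, but no member passed limma's test. Of all 15127 genes, 0% were called higher and 0% lower, while 882 had an unadjusted p under 0.05, and the smallest limma adjusted p of any gene was 0.248. Zbed3 was 2.00-fold lower by mean FPKM, with a log2 difference of -0.99 ± 0.16 (SE, limma adjusted p = 0.494), and the 4 pairings of a treated with a control library ran from -1.13 to -0.86. Padi6 was 2.20-fold higher, with a log2 difference of 1.15 ± 0.18 (SE, limma adjusted p = 0.494) and pairings from 0.98 to 1.31. Ooep was 2.14-fold higher, at 1.10 ± 0.18 (SE, limma adjusted p = 0.494), with pairings from 0.99 to 1.22. For these 3 genes every treated library lay beyond every control library by at least 0.86 log2 units.

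The differences of the remaining members had larger errors. Tle6 was 2.42-fold higher (log2 1.34 ± 0.33, SE, limma adjusted p = 0.709), and its pairings ran from 0.85 against WT_MII_1 to 1.83 against WT_MII_2. Nlrp5 was 1.82-fold higher (0.86 ± 0.29, limma adjusted p = 0.836), with pairings from 0.78 to 0.95. Khdc3, on 13 reads in WT_MII and 45 in Treat_MII, was 2.17-fold higher (1.13 ± 0.61, limma adjusted p = 0.931). Nlrp4f differed by 0.13 ± 0.27 (limma adjusted p = 1), and its 4 pairings ran from -0.01 to 0.28.

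Counted without a model, 5 of 7 members had both treated libraries above both controls and 1 had both below. Of all tested genes, 16.2% were higher and 15.6% lower by that measure, and of the 2706 genes with at least 60 reads, 25.0% and 21.1%. By the 2-fold rule of the study, applied to the ratio of mean FPKM + 1, 4 members were higher, as were 19.9% of all genes. Zbed3, at 2.00-fold before rounding just short of the rule, was not among the 21.2% that were lower. At maturation all 7 members passed that rule, 5 lower and 2 higher, where 41.8% of all genes were lower and 23.6% higher. There too no member's groups overlapped, against 25.8% of all genes lower and 15.3% higher without overlap.

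**Figure D3:**
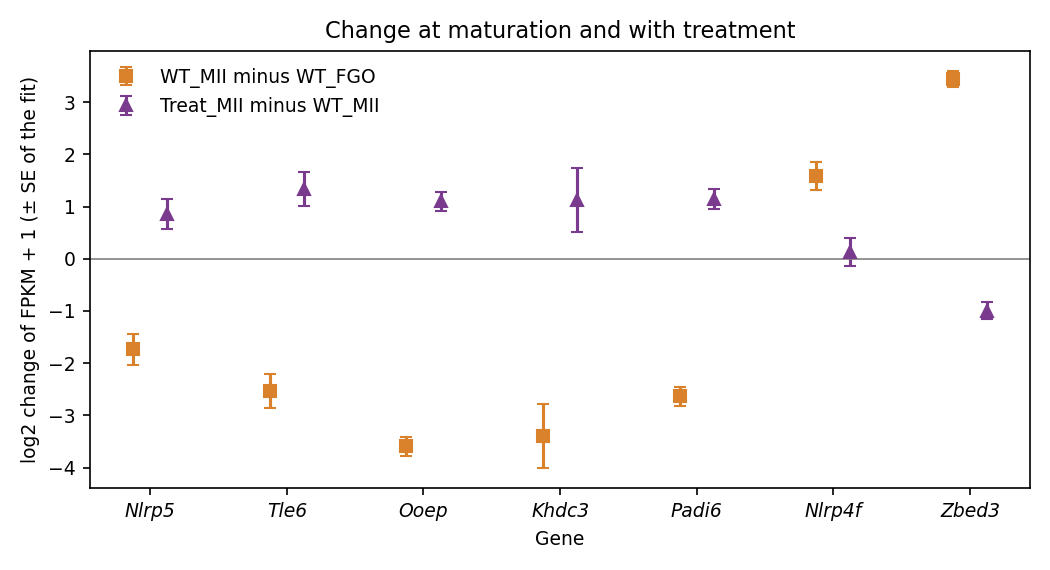
log2 change of FPKM + 1 per gene, with bars of 1 SE of the limma fit, for WT_MII minus WT_FGO (squares) and Treat_MII minus WT_MII (triangles). The first set spans -3.59 for Ooep to 3.45 for Zbed3; the second lies between 0.86 and 1.34 for 5 genes, at 0.13 for Nlrp4f and at -0.99 for Zbed3. Both sets use the WT_MII libraries.

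When each value was weighted by the precision its reads allow, treatment calls appeared among the members. With these weights on the 2706 genes with at least 60 reads, a setting added after the data were seen, Padi6 (log2 1.15 ± 0.19, limma adjusted p = 0.0307) and Tle6 (1.37 ± 0.27, limma adjusted p = 0.0464) were called higher and Zbed3 (-0.99 ± 0.18, limma adjusted p = 0.0307) lower. By this fit 0.296% of genes were called higher and 0.0739% lower, 8 and 2 genes, so 3 of the 10 calls were members. Ooep had a limma adjusted p of 0.0742 there, Nlrp5 of 0.144, Khdc3 of 0.597 and Nlrp4f of 0.839. The 3 called members had from 266 (Tle6, WT_MII) to 4266 reads (Padi6, Treat_MII) in an MII group. Nlrp5, not called, had 810 in WT_MII and 2265 in Treat_MII. The part of depth in the calls was not tested. With the weights on all 14544 genes with recovered reads, 4 members (Ooep, Tle6, Nlrp5 and Padi6) were called higher and Zbed3 lower, against 0.447% and 0.688% of genes. That fit gave all genes of one depth the same spread, so its p-values leave out variation particular to a gene. A permutation of 2 libraries against 2 cannot reach the threshold either way: for the ratio of Zbed3 to Padi6, lower by 2.14 log2 units in treated oocytes, the two-sided exact permutation p was 0.333, the smallest possible.

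Treated oocytes were also set against WT_FGO, a comparison that shares libraries with both others. Zbed3 was higher by 2.45 ± 0.16 (log2, SE, limma adjusted p = 0.00195) and Nlrp4f by 1.72 ± 0.27 (limma adjusted p = 0.0279). The log2 difference of Ooep was -2.49 ± 0.18 (limma adjusted p = 0.00236) and that of Padi6 -1.49 ± 0.18 (limma adjusted p = 0.0122), both lower in treated oocytes. These 4 members were called, where 3.87% of all genes were called in either direction. Limited to the 2706 genes of 60 reads or more, the unweighted fit called far more, 733 higher and 413 lower. It then called 6 members, adding Tle6 (limma adjusted p = 0.0351) and Khdc3 (0.0278) but not Nlrp5 (0.0585). Tle6 (-1.19, limma adjusted p = 0.119), Nlrp5 (-0.87, limma adjusted p = 0.171) and Khdc3 (-2.27, limma adjusted p = 0.111) were not called, although both treated libraries lay below both WT_FGO libraries in each. With either Treat_MII library or WT_MII_1 left out all the calls on members were lost, and with WT_MII_2 left out most were. The all-gene shares of those fits are not given. Without WT_FGO_2, Nlrp5 (-1.26, limma adjusted p = 0.0297) and Khdc3 (-3.03, limma adjusted p = 0.0456) were called as well. Without WT_FGO_1, Nlrp5 was at -0.49 (limma adjusted p = 0.145) and Khdc3 at -1.51 (limma adjusted p = 0.152), and Padi6 was no longer called (-1.34, limma adjusted p = 0.0639). After centring on the median of all genes Padi6 was not called either (-1.14, limma adjusted p = 0.098). That fit called 594 genes higher and 65 lower of 15127.

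In levels, then, 5 members ran WT_FGO over Treat_MII over WT_MII with no overlap, an order shown by 5.26% of all tested genes and by 10.9% of those with at least 60 reads. Zbed3 ran the other way, as did 2.53% and 8.68% of genes. The same WT_MII libraries enter both the maturation and the treatment comparison, so their own error enters both.

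The median log2 change of the 7 members was -2.53 at maturation, 1.10 with treatment and -1.19 for treated against WT_FGO, beside -0.44, 0.00 and -0.53 over all genes tested. Over the 2706 genes with at least 60 reads the medians were 0.23, 0.06 and 0.13, so the sign of the general shift in both comparisons with WT_FGO depends on which genes are counted. Centred on the median of all genes, the maturation median of the members was -2.07, and all 7 members kept their direction. Nlrp5 (limma adjusted p = 0.132) and Khdc3 (limma adjusted p = 0.0593) were then no longer called. That fit called 758 genes higher and 305 lower of 15127. The oocyte markers also had log2 differences above 0 between treated and control MII oocytes, 10 of 10, with a median of 1.10 and 0 called. At maturation 5 of the 10 markers were called lower and 1, Oosp1, higher, with a median of -2.65. Of all genes tested, 3.09% were called lower and 3.67% higher, and of those with at least 60 reads, 18.8% and 27.5%. With treatment the markers differed in size: Oosp1 and Gdf9 had log2 differences of 0.18 and 0.18, and Zp2 and Bmp15 of 1.37 and 1.76. The part of the markers' difference in that of the members was not tested.

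Of the 11 reported partners and oocyte NLRP genes close to them, 6 were called lower and 0 higher at maturation, with a median of -1.84, and 11 of 11 lay below 0. Over all genes tested, 3.09% were called lower and 3.67% higher, and the median was -0.44. With at least 60 reads the shares were 18.8% and 27.5% and the median was 0.23. The same shares stand beside the lists below. Skp1a, a subunit of SCF ubiquitin ligases, had 20330 and 13080 FPKM in WT_FGO, against 1951 and 2186 FPKM for WT_MII and 4179 and 4394 FPKM for Treat_MII. It fell by 2.98 at maturation on the log2 scale (limma adjusted p = 0.0025). Nlrp14, an NLRP protein of the oocyte, had 11380 and 8228 FPKM in WT_FGO, against 2462 and 2791 FPKM for WT_MII and 5367 and 5238 FPKM for Treat_MII, and fell by 1.88 (limma adjusted p = 0.00565). With treatment 0 of the 11 were called, and 11 of 11 lay above 0 with a median of 0.52. The median over all genes tested was 0.00, and 0.06 over those with at least 60 reads. Skp1a and Nlrp14 differed by 1.05 and 1.02 (limma adjusted p = 0.709 and 0.625).

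Sequence relatives of the members were mostly low. Of 15 paralogs, 14 were in the table and 12 passed the filter of 1 FPKM, of which 2 were called lower and 0 higher at maturation. Dppa5a, a KH-domain relative of Ooep and Khdc3, had 1168 and 1343 FPKM in WT_FGO, against 256.8 and 146.8 FPKM for WT_MII and 341.1 and 440.7 FPKM for Treat_MII, and fell by 2.68 (log2, limma adjusted p = 0.0118). Khdc1a, named after its values were seen, was the other, at 85.17 and 37.45 FPKM in WT_FGO and listed at 0 in both WT_MII libraries. Khdc1b, at a mean of 833.3 ± 147.1 FPKM in WT_FGO and 335.7 ± 157.2 FPKM in WT_MII (SD, n = 2), did not pass the test (limma adjusted p = 0.112). The other deiminases Padi1 to Padi4 stayed at or under 18.2 FPKM in every library, far below Padi6. With treatment 0 of the 12 were called, with a median of 0.70.

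Other maternal-effect genes lay on both sides of 0. Of 19 tested, 1 was called higher and 2 lower at maturation, with a median of 0.26 and 10 above 0. Npm2, the oocyte nucleoplasmin, had 2390 and 2492 FPKM in WT_FGO, against 292.8 and 188.3 FPKM for WT_MII and 1035 and 1309 FPKM for Treat_MII. It fell by 3.37 (log2, limma adjusted p = 0.00321). Dppa3, which protects maternal DNA methylation, had 3125 and 1942 FPKM in WT_FGO, against 1429 and 1957 FPKM for WT_MII and 1322 and 1440 FPKM for Treat_MII, and did not pass the test (-0.56, limma adjusted p = 0.34). Zfp57, called higher by 2.08, and Zar1, called lower by -2.22, are named after their values were seen. With treatment 0 of the 19 were called, 10 lay above 0 and the median was 0.14. Npm2 differed by 2.31 (limma adjusted p = 0.446).

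**Figure D4:**
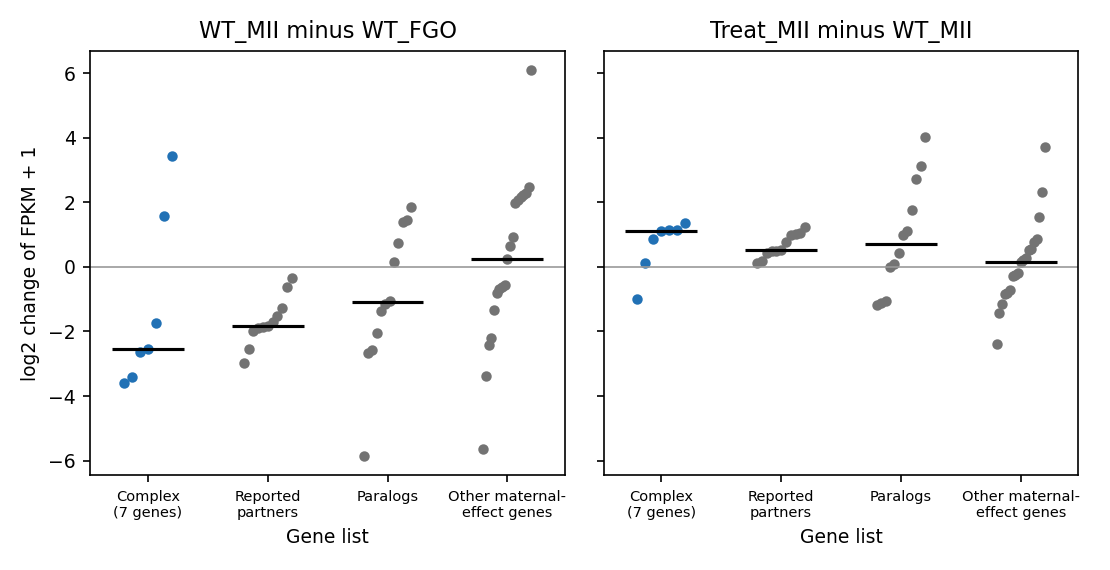
log2 change of FPKM + 1 for each tested gene of 4 lists, at maturation (left) and with treatment (right); each point is 1 gene and each line the median of its list. The list drawn as reported partners also holds oocyte NLRP genes close to them. All 11 of its genes lie below 0 on the left and above 0 on the right. The other maternal-effect genes lie on both sides of 0 in both panels.

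For each member the most similar other genes were sought by the root mean square difference of log2 profiles, centred per gene, over the 6 libraries and among 2057 named genes whose mean reached 50 FPKM. Nlrp5 was nearest to Foxj3 (0.09) and Txnl1 (0.11), Tle6 to Rab3d (0.16) and Nudcd3 (0.19), and Ooep to Psmb4 (0.20) and Fbxw15 (0.22). Khdc3 was nearest to Tomm6 (0.20) and Ctsh (0.31), and Padi6 to Fbxw24 (0.13) and Puf60 (0.14). Nlrp4f was nearest to Map4 (0.10) and Washc2 (0.14), and Zbed3 to Zfand2a (0.24) and Parp12 (0.28). Among the members themselves the closest profiles were those of Tle6 and Padi6 (0.23), and the furthest those of Ooep and Zbed3 (2.95). Nlrp4f and Zbed3, the members that rose at maturation, differed by 0.79. These are descriptions over 6 libraries that share their totals.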

How the data were processed

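Ribosome footprints of mouse oocytes were deposited as 1 table of FPKM per gene for 6 libraries. The submitters' processing notes name cutadapt 1.14, Bowtie2 2.2.2 and STAR 2.5.3a with mm10, while the counter and the treatment of repeated or multiply mapped reads are not given in the sources used here. The deposited FPKM values, computed by the authors, are relative to each library's total, and no spike-in is named for them. Of 22442 rows, 26 repeated names were left out. FPKM times coding length (GENCODE M21) gave whole reads, within 0.02 of a read plus 0.001% of the reads, for 98.4% of the 21937 genes with a coding length, and for all 7 members.

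log2(FPKM + 1) was fitted with limma 3.58.1 (R 4.3.3, lmFit and eBayes with trend), all 3 groups in 1 fit without covariates, for genes whose mean over the 6 libraries reached 1 FPKM. Alternatives were another pseudocount (0.1), other filters, centring, quantile normalization, a replicate block, 2 groups alone, voom weights on the recovered reads and each library left out. No pairing by replicate number was seen: deviations of same-numbered libraries correlated at 0.0342, 0.0176 and 0.0189 over 2706 genes. Counting error at these depths lowers such correlations, so they cannot show that no batch was shared. Named genes were all members, the 2 nearest profiles of each, and the 2 highest genes of each list. The members and lists were chosen with earlier results of these data known. Motifs and coding words were searched with Python 3.11.15, and figures drawn with matplotlib 3.10.9.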

Additional observations from a re-analysis of the deposited data

How the results depend on the processing

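At maturation 7 members were called. Without the filter on low values 0 were, and with only the 2 groups compared 0 were, as were 0 of all 15127 genes. Leaving out 1 library removed calls in every case. The members' median log2 change was -2.53, -2.07 after centring on the median log2 difference, and -2.79 to -2.07 with 1 library left out. With treatment 0 were called; precision weights gave 5, and 3 among genes with at least 60 reads. For Treat_MII minus WT_FGO 4 were called. Without the filter 0 were, and with only the 2 groups 0 were, beside 31 genes higher and 1 lower of 15127. Precision weights gave 7, and again 7 among genes with at least 60 reads. Leaving out 1 library changed the number called in every case. All-gene shares are not given for the fits without the filter or without 1 library. Of all genes, the weighted fit called 850 higher and 1984 lower of 14544 in that comparison. Among genes with at least 60 reads the weighted fit called 749 higher and 675 lower of 2706. Without weights, the 60-read limit gave 6 called members, beside 733 genes higher and 413 lower of 2706. The members' median for Treat_MII minus WT_FGO, -1.19, became -0.84 after centring and -1.48 after quantile normalization. Some of these fits had fewer libraries, and the cause of the differences was not tested. With the replicate block 7, 0 and 4 members were called, as without it, and the medians were -2.53, 1.10 and -1.19. Of 15127 genes, the block left 453 higher and 335 lower at maturation, 0 and 0 with treatment, and 363 and 73 for Treat_MII minus WT_FGO. No member's log2 change turned direction in any alternative. With runs of at least 2 G the motif matches went from 1 to 37, and with words of 20 bases the share of coding words found in other genes went from 17.4% to 23.3%. Depth limits Khdc3 most, with 13 reads in the WT_MII libraries.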
